A study of Homo sapiens with 4 samples.

Results

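Interleukins and chemokines are the signalling proteins of inflammation and immunity, and their promoters were examined here for 2 histone marks in human embryonic stem cells. Genes were taken by name: every row whose symbol starts with IL, CCL or CXCL followed by a digit. The rule found 128 of the 20242 promoters, namely 29 CC chemokines, 14 CXC chemokines (IL8, the former symbol of CXCL8, is counted among them), 40 interleukins, 41 interleukin receptors, 3 secreted antagonists (IL18BP, IL1RN and IL36RN) and 1 enzyme, IL4I1, an amino acid oxidase that carries an interleukin symbol. The rule uses no measured value, though it was set with earlier results of these data known. Chemokines with other names, such as CX3CL1 and XCL1, and the chemokine receptors lie outside it and are given at the end.

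The cells were JMJD3c-hESCs, made from SEES-3, an established human embryonic stem cell line, and grown without feeders in StemFit AK-03 medium. They carry a piggyBac transgene, switched by doxycycline through a Tet-On system, for JMJD3c, the HA-tagged catalytic domain of the histone demethylase JMJD3 (KDM6B). Chromatin immunoprecipitation and sequencing (ChIP-seq) was done for trimethylated lysine 27 (H3K27me3) and trimethylated lysine 4 of histone H3 (H3K4me3) in 4 groups. The −Dox groups, 1 per mark, are the same transgenic line kept without doxycycline, and the +Dox groups received 1 µg/ml and were collected on day 3. Each group is 1 library, so no difference below has a replicate check or a p-value, and whether the line is a single clone is not given in the sources used here. The JMJD3c is a truncated, ectopically expressed enzyme and not the cell's own JMJD3.

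Polycomb complexes place H3K27me3 on promoters of silent genes, many of them regulators of development, while H3K4me3 marks promoters that are active or ready for transcription. Promoters that carry both marks in stem cells are called bivalent. JMJD3 removes H3K27me3, and in macrophages its own gene is switched on by inflammatory signals through NF-kB, the transcription factor that also activates many chemokine and interleukin genes. Chemokines guide migrating cells through G protein-coupled receptors, and most interleukins act through receptor chains coupled to JAK kinases and STAT factors, or, for the interleukin 1 and interleukin 17 families, to NF-kB.

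Each value below is a signal: the coverage by reads, scaled by the authors to library reads and added up from 3 kb before to 3 kb after 1 transcription start per gene. The values move in fixed steps, which gives approximate reads: a signal of 20, the threshold of the study's methods for a marked promoter, equals 15.5 and 15.8 reads for H3K27me3 and 20.3 and 15.8 reads for H3K4me3 in −Dox and +Dox. The windows hold about 168773 to 935204 reads per library, and a count of 0 allows a signal of up to 2.95 to 3.86, the value of 3 reads. The median member had only 5.01 to 5.91 reads, so a difference between members near the median was not detectable at this depth. Both +Dox libraries have the same step, 0.373, and whether each was scaled to its own number of reads is not given in the sources used here. Of 10 markers of pluripotent cells, 9 exceeded 20 for H3K4me3 in both conditions (median 135 in −Dox and 113 in +Dox), POU5F1 being the exception, with its deposited start 10049 bp from the canonical one. None of 10 blood and immune cell markers did (0.285 to 7.98 in −Dox), and 1 of 4 endothelial markers did, KDR.

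Promoters of some genes described below are shown first, chosen for extreme values and not as typical members. They are given in GRCh37 (the hg19 build), 5′ to 3′ on the strand of the gene. Each runs from 250 bases before the deposited start to 50 from it, with every CG dinucleotide in capitals. IL1RAP (ENSG00000196083, chr3:190231624-190231923, plus strand), the shared signalling chain of the interleukin 1 receptors, had the lowest +Dox/−Dox ratio of H3K27me3 among the members above 20 in −Dox and holds 36 CG. CXCL3 (ENSG00000163734, chr4:74904357-74904656, minus strand) and IL8 (chr4:74606036-74606335, plus strand) are neutrophil-attracting chemokines of the same gene cluster, with 24 and 4 CG, and stood at opposite ends of the cluster in H3K4me3.
IL1RAP: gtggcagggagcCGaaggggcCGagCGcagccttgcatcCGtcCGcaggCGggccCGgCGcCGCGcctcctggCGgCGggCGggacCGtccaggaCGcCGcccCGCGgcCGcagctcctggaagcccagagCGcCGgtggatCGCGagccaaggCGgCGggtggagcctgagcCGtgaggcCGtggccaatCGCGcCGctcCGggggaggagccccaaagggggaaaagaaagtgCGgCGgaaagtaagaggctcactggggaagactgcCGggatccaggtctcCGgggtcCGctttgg
CXCL3: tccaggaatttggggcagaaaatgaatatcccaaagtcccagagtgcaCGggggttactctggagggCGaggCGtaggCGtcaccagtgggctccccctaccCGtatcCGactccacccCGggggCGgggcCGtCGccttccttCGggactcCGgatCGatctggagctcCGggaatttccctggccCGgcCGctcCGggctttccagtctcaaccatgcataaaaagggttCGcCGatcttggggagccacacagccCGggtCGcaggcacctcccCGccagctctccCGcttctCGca
IL8: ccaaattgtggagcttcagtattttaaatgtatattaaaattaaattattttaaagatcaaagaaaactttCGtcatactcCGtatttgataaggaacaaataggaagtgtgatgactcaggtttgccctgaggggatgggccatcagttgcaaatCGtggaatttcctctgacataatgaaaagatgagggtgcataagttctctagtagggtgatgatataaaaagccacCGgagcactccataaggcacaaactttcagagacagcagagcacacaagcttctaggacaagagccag

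H3K4me3 was rare at the deposited starts of interleukins and chemokines. Without Dox, 28 of the 128 exceeded 20 (21.9%, 95% Wilson interval 15.6 to 29.8), against 63.7% of all 20242 promoters, and with Dox it was again 28 (21.9%) against 62.7%. The median member had 5.70 and 6.90 in −Dox and +Dox, against 41.3 and 38.8 for all promoters. H3K27me3 was not rarer in the same way. It exceeded 20 at 15 members in −Dox (11.7%, 7.23 to 18.4) against 11% of all promoters, and at 6 in +Dox (4.69%, 2.17 to 9.85) against 6.73%. The medians of H3K27me3 were 7.61 and 6.34 for members, 6.09 and 5.97 for all. Both marks exceeded 20 in −Dox at 10 members (7.81%, 4.3 to 13.8) against 9.42% of all promoters. The shares for H3K27me3 and for both marks therefore lie near their background. A total of 95 members had neither mark above 20 in −Dox (74.2%), against 34.8% of all promoters.

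**Figure D1:**
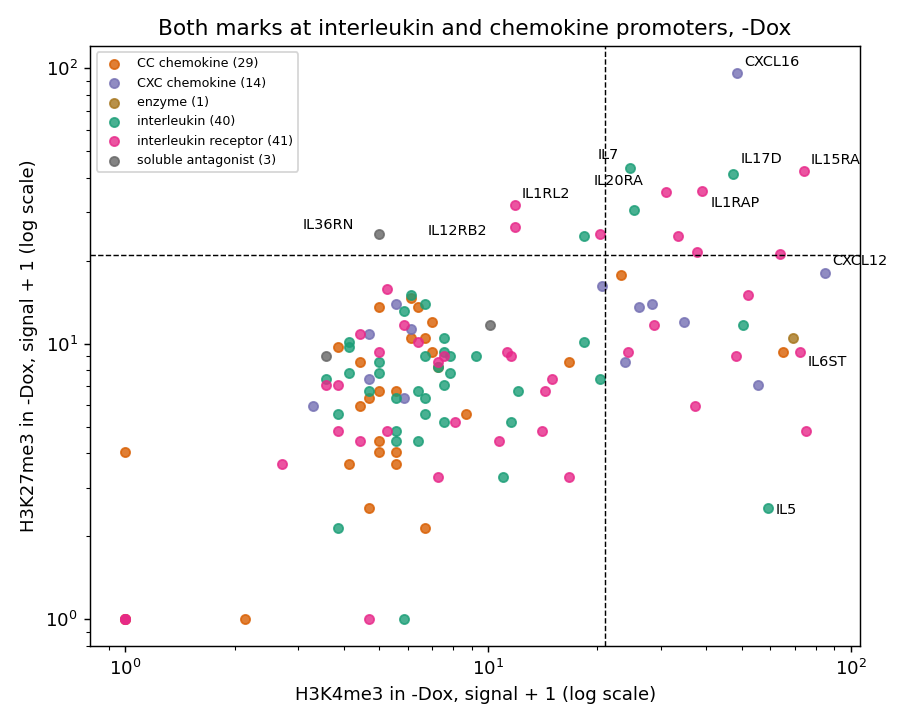
Signal of H3K4me3 (x axis) against H3K27me3 (y axis) in the −Dox libraries, each as signal + 1 on a log scale, for 128 promoters coloured by role, with dashed lines at a signal of 20. Most points lie in the lower left, 10 lie above both lines, and CXCL16 stands highest for H3K27me3.

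The roles differed in level. Among CC chemokines, which attract monocytes, lymphocytes and eosinophils, the median H3K4me3 in −Dox was 4.56 and 2 of 29 exceeded 20, CCL27 and CCL25. Among CXC chemokines it was 21.2 and 7 of 14 exceeded 20, again 7 in +Dox. Of the 40 interleukins, 5 exceeded 20 in each condition, with IL11 among them in −Dox alone and IL12A in +Dox alone, with a median of 5.70 in −Dox. Of the 41 receptors, 13 exceeded 20 in −Dox and 14 in +Dox, with a median of 10.5, and none of the 3 antagonists did in either condition. H3K27me3 above 20 in −Dox was held by 9 receptors, 4 interleukins, 1 CXC chemokine and 1 antagonist, and by none of the CC chemokines, whose highest value was 16.7, at CCL25. The classes are compared by count alone, since members of a class are not replicates.

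The highest H3K4me3 in −Dox was at CXCL12 (ENSG00000107562, gene at chr10:44865613-44881941), the stromal chemokine that binds CXCR4, with 83.8 in −Dox and 74.9 in +Dox, at a start that could not be placed on the reference. Signalling receptors followed. IL4R, the receptor chain for interleukins 4 and 13, had 74.4 and 64.9, and IL15RA, the chain that presents interleukin 15, had 73.2 and 68.6. IL6ST, or gp130, the signal transducer shared by the interleukin 6 family, had 71.5 and 80.5. All 3 are chains of receptors for interleukins. IL17RA, the common chain of the interleukin 17 receptors, had 62.7 and 47.4, and its partner IL17RC had 51.0 and 55.2, with the start of another protein-coding gene 42 bp away. CXCL3 had 54.4 and 51.8.

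The other 3 of the 10 highest lay far from the gene's canonical start or beside another gene. The row of IL4I1 had 68.1 and 74.9, but the start used lies 32652 bp from where the canonical transcript of IL4I1 begins and 35 bp from the start of NUP62, a nuclear pore gene, whose own row had 70.1 and 80.5. The row of IL5, the eosinophil growth factor, had 58.1 and 48.1, with its start 13316 bp from the canonical one and 139 bp from that of RAD50, a DNA repair gene with 58.7 and 46.2. The row of CCL27, a skin chemokine, had 63.8 and 61.1, with its start 1391 bp from the canonical one and 1997 bp from that of another protein-coding gene. The windows of the IL4I1 and IL5 rows therefore do not reach the canonical starts of those genes. The value of CCL27 belongs to its window and not to the CCL27 promoter alone. Of 109 members with a canonical start in the reference, 24 have a deposited start over 1 kb from it, IL4I1, IL5 and CCL27 among them. Of those 24, 3 exceeded 20 for H3K4me3 in −Dox, and of the 85 within 1 kb, 24 did. A low value at a distant start is likewise no measure of the gene's own promoter. The same split was not computed for all promoters. In all, 10 matched members have the canonical start of another protein-coding gene within 3 kb, and 6 of the 10 exceeded 20 for H3K4me3 in −Dox. Of the 102 matched members without such a neighbour, 21 did.

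Several well-known inflammatory genes had values below 20 for both marks, unlike CXCL1, CXCL2 and CXCL3, which exceeded 20 for H3K4me3 in both conditions. IL1A and IL1B, the fever-inducing interleukin 1 proteins, had 9.97 and 8.26 of H3K4me3 in −Dox and 6.34 and 7.08 in +Dox. Their H3K27me3 was 2.28 and 7.99 in −Dox and 7.46 and 6.34 in +Dox. IL6, the acute phase interleukin, had 5.70 and 6.71 of H3K4me3 and 7.99 and 6.34 of H3K27me3, in a window centred 1316 bp from its canonical start. All of these values are under 10. IL8 had 2.28 and 1.49 of H3K4me3, and its H3K27me3 was 4.94 in −Dox and listed at 0 in +Dox. IL10, which dampens inflammation, had 4.84 and 2.24 of H3K4me3 and 12.2 and 8.20 of H3K27me3. CCL2, the monocyte attractant, had 15.7 and 13.0 of H3K4me3 and 7.61 and 5.97 of H3K27me3. The T cell attractants CCL5 and CXCL10 were lower still in H3K4me3. CCL5 had 3.70 and 2.61 and CXCL10 had 3.70 and 4.85. For H3K27me3, CCL5 had 1.52 and 4.47 and CXCL10 had 6.47 and 2.61.

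The cytokines that steer T helper cells were also below 20 for H3K4me3 in −Dox. IL12A, a subunit of interleukin 12, had 17.4 in −Dox and 20.9 in +Dox, a ratio of 1.20 (0.587 to 2.49), so it lay on either side of 20. Its partner IL12B had 19.4 and 17.5, and IL23A, which pairs with IL12B, had 10.5 and 14.2. H3K27me3 at these 3 was 9.13, 6.47 and 4.18 in −Dox and 8.20, 4.47 and 10.4 in +Dox. IL4, the driver of the T helper 2 fate, had 6.55 and 6.71 of H3K4me3 and 4.18 and 7.08 of H3K27me3, and IL17A had 6.27 and 9.32 of H3K4me3 and 7.23 and 9.32 of H3K27me3. IL17RD, an inhibitor of FGF signalling, had 10.5 and 11.2 of H3K4me3 and 7.99 and 8.95 of H3K27me3 in a window 4953 bp from its canonical start. IL1RAPL1, a synaptic protein, had 13.1 and 9.69 of H3K4me3 and 3.80 and 2.24 of H3K27me3. IL34, a ligand of the CSF1 receptor, had 3.13 and 4.10 of H3K4me3 and 8.75 and 3.73 of H3K27me3 in a window 66664 bp from its canonical start.

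Neighbouring genes of a family did not share a level everywhere. In the CXC cluster of chromosome 4 (IL8, CXCL6, CXCL1, CXCL5, CXCL3 and CXCL2, spanning 359 kb), H3K4me3 in −Dox ran from 2.28 at IL8 to 54.4 at CXCL3, and 5 of 6 exceeded 20. Between those ends, CXCL2 had 33.6 in −Dox and 22 in +Dox, CXCL6 27.4 and 28.0, CXCL1 25.1 and 33.6, and CXCL5 22.8 and 15.3. All 6 code for neutrophil attractants, and IL8 was the lowest of them in both conditions. H3K27me3 in this cluster stayed between 4.94 and 12.9 in −Dox. The interferon-induced CXCL9, CXCL10 and CXCL11, further along the same chromosome, had 3.70 to 4.84 of H3K4me3 in −Dox. The start used for CXCL11 lies 5345 bp from its canonical one. In the CC cluster of chromosome 17 (CCL2, CCL7, CCL11, CCL8, CCL13 and CCL1) H3K4me3 in −Dox ran from 3.42 to 15.7, and no member exceeded 20 for either mark in either condition.

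The interleukin 1 family on chromosome 2 (IL1A, IL1B, IL37, IL36G, IL36A, IL36B, IL36RN and IL1RN) had 2.56 to 11.1 of H3K4me3 in −Dox. Its H3K27me3 ran from 2.28 to 24.0, and only IL36RN, the antagonist of the interleukin 36 receptor, exceeded 20. The interleukin 1 receptor cluster of the same chromosome (IL1R2, IL1R1, IL1RL2, IL18R1, IL1RL1 and IL18RAP) had 3.70 to 10.8 of H3K4me3, and only IL1RL2, the interleukin 36 receptor, exceeded 20 for H3K27me3. The deposited start of IL18R1 lies 44267 bp from its canonical start and 34 bp from that of IL1RL1, so both rows cover nearly the same window. Those of IL1R1 and IL18RAP lie 72370 and 4471 bp from their canonical starts, and in the interleukin 1 family those of IL1RN and IL37 lie 28238 and 1806 bp away. None of the 4 genes of the interleukin 10 family on chromosome 1 (IL10, IL19, IL20 and IL24) exceeded 20 for either mark, with the start used for IL19 63590 bp from its canonical one.

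**Figure D2:**
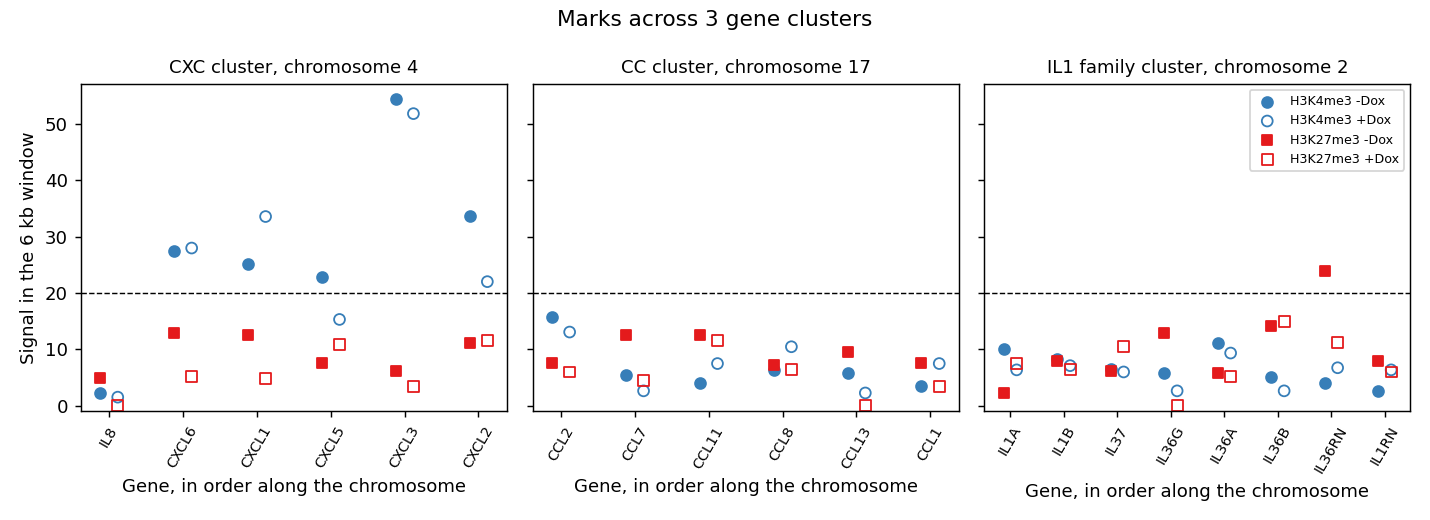
Signal in the 6 kb window (y axis) for the genes of 3 clusters in chromosome order (x axis), with circles for H3K4me3 and squares for H3K27me3, filled for −Dox and open for +Dox, and a dashed line at 20. In the CXC cluster 5 of the 6 genes lie above the line for H3K4me3 in −Dox, and no gene of the CC cluster lies above it for either mark.

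The 3 members CCL3L1, IL3RA and IL9R were listed at 0 in all 4 libraries, as were 373 promoters in all. IL3RA and IL9R lie in the pseudoautosomal regions shared by the sex chromosomes, and the 15 promoters nearest the short-arm end of the X chromosome were all at 0. CCL3L1, CCL3L3, CCL4L1 and CCL4L2 have near-identical copies, so reads there may not have been assigned and their values are uncertain. CCL4L1 and CCL4L2 were at 0 except for H3K4me3 values of at most 1.49. These zeros are no measure of the marks.

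The low H3K4me3 went with CpG-poor sequence. A start could be placed on GRCh37 for 112 of the 128 members, and CpG-rich was taken as at least 50% GC and an observed-to-expected CpG ratio of at least 0.6 over 500 bp on each side. Only 24 of the 112 members were CpG-rich (21.4%), against 60.7% of all promoters with a placed start. By role these were 5 of 13 CXC chemokines, 5 of 37 interleukins, 13 of 39 receptors and none of 19 CC chemokines. Among the CpG-rich, 20 of 24 members exceeded 20 for H3K4me3 in −Dox (83.3%, 64.1 to 93.3), against 92.3% of all CpG-rich promoters. The 4 that did not were CXCL14, IL12A, IL12RB2 and IL13. Among the CpG-poor, 7 of 88 members did (7.95%, 3.91 to 15.5), against 23.3%.

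H3K27me3 was more frequent at the CpG-rich members than at all CpG-rich promoters. It exceeded 20 in −Dox at 10 of the 24 CpG-rich members (41.7%, 24.5 to 61.2) against 15.3% of all CpG-rich promoters. In +Dox it did so at 5 (20.8%, 9.24 to 40.5) against 9.10%. At the CpG-poor members the share was 5.68% in −Dox, against 4.77%. The 24 CpG-rich members are few, and no test was made of these shares.

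**Figure D3:**
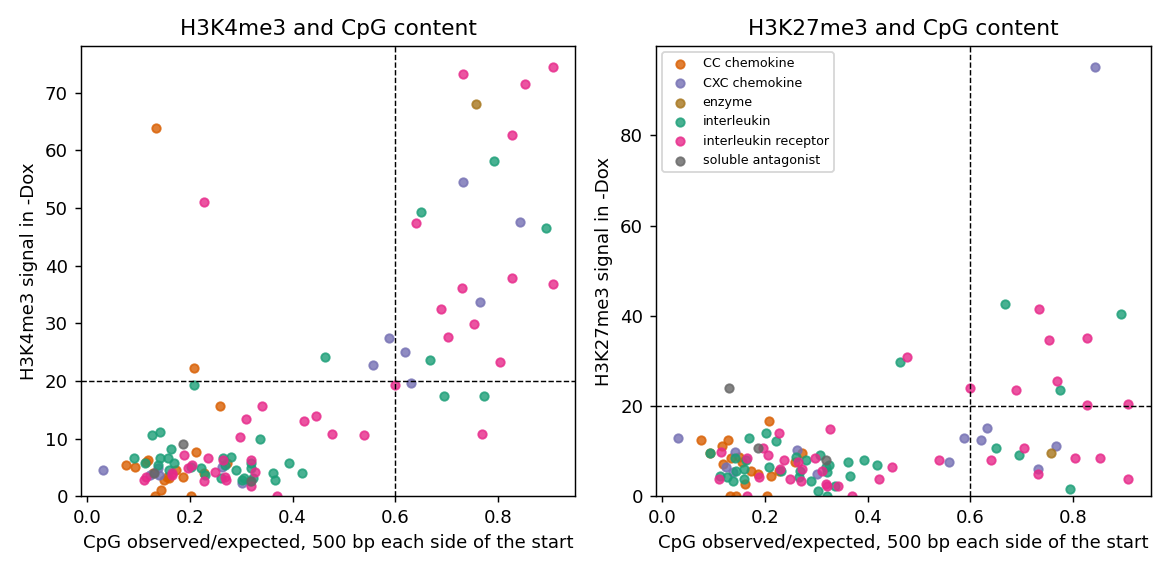
Signal in −Dox (y axis, H3K4me3 left and H3K27me3 right) against the observed-to-expected CpG ratio within 500 bp of the start (x axis) for 112 members coloured by role, with dashed lines at 20 and 0.6. Most members lie at low ratios with low signal of both marks, and the 20 CpG-rich members above the H3K4me3 line lie to the right of the vertical line.

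The sequence of the promoters also differed from the rest in short motifs. The median number of CG in the 300 bases was 5 for members and 21 for all promoters. The letters TATAAA, searched on both strands, were in 27 of 112 members (24.1%) and in 9.97% of all promoters. A match to the NF-kB consensus, searched on both strands independently of TATAAA, so that matches could overlap, was in 25 of 112 (22.3%) and in 12.3%. Among CXC chemokines 5 of 13 had TATAAA and 6 of 13 the NF-kB consensus. Of the sequences shown above, IL8 has TATAAA starting 31 bases before its start and no strict match to the NF-kB consensus, and CXCL3 has 1 stretch that matches the consensus on both strands, starting 79 bases before its start. Of the 27 members with TATAAA, H3K4me3 in −Dox exceeded 20 at 2 (CCL25 and CXCL6), against 34.4% of all promoters with it, and H3K27me3 at none, against 10.1%. Of the 25 with the NF-kB consensus, H3K4me3 exceeded 20 at 9, among them CXCL1, CXCL2, CXCL3, CXCL5, IL15, IL27RA, IL4R and IL6ST, against 72.6% of all promoters with it, and H3K27me3 at 2, against 14.9%. Both motifs occurred in CCL11, CCL20, IL1R2 and IL23A (3.57%, against 0.745%). A match here is a run of letters and not a measured binding site.

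The design also asks how the marks differed after induction of JMJD3c. H3K27me3 was lower in +Dox at 13 of the 15 members above 20 in −Dox (86.7%, 62.1 to 96.3), against 86% of the 2226 promoters of all genes above 20 in −Dox. At or below 20 in +Dox were 9 of the 15 (60%, 35.7 to 80.2), against 42.3%. The median of the 15 was 29.7 in −Dox and 13.8 in +Dox, and the median log2 ratio +Dox/−Dox was −0.77, against −0.79 for those 2226 promoters. A ratio below 0.5 was reached by 5 of the 15 (33.3%, 15.2 to 58.3), against 40.4% of all promoters above 20 in −Dox. These members were chosen for a high −Dox value, which alone favours a lower second value. Among members whose mean of −Dox and +Dox was at least 20, a choice that treats both libraries alike, 6 were lower and 2 higher. Of 1793 promoters of all genes with such a mean, 1455 were lower and 338 higher. The median log2 ratio of these members was −0.59 (range −1.20 to 0.10, n = 8) against −0.63 for all promoters. In that set 1 of 8 had a ratio below 0.5 (12.5%), IL1RL2, against 30.8% of all promoters, and 0 of 8 a ratio above 2, against 0.279%. The median of the members thus lay near that of all promoters.

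**Figure D4:**
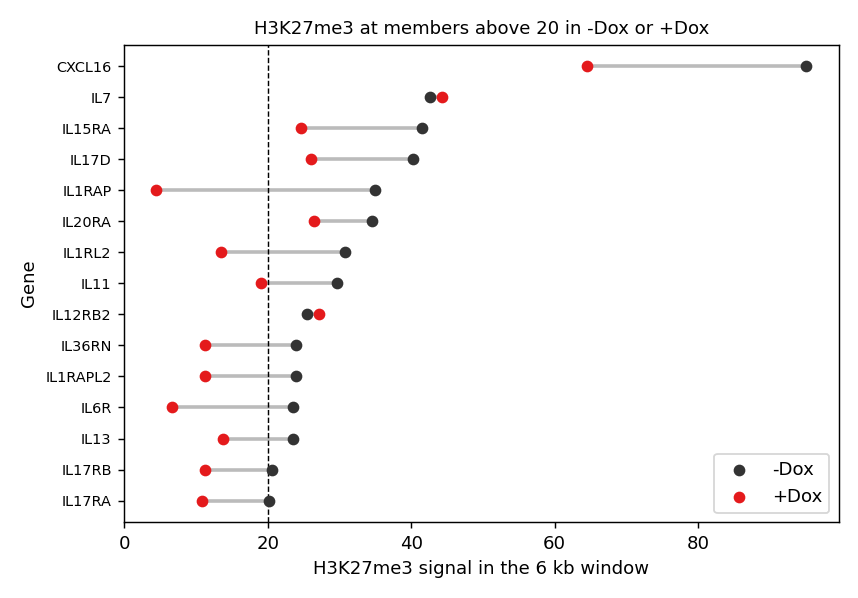
H3K27me3 signal in the 6 kb window (x axis) in −Dox (dark points) and +Dox (red points) for the 15 members above 20 in either library (y axis), with a grey line joining both values of a gene and a dashed line at 20. In all, 13 genes have the +Dox point to the left, IL7 and IL12RB2 have it slightly to the right, and IL1RAP has the longest line relative to its −Dox value.

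Intervals of single ratios were computed from the approximate reads of both libraries and cover counting error only. They lay below 1 for 4 of the 15 (26.7%), against 46.5% of the promoters above 20 in −Dox. Scaling +Dox to the summed signal of −Dox, a factor of 1.18 for H3K27me3, sets both totals equal and so would remove a general loss of the mark. After this scaling the intervals lay below 1 for 2 of the 15 (13.3%), against 30.8%. Those 2 were IL1RAP and IL6R. Members below 20 in −Dox are not in these shares. Of them, IL36G, CCL13, CXCL17, IL22RA2 and IL7R also had an upper bound below 1 as deposited. After scaling, IL36G (12.9 in −Dox and 0 in +Dox) and CCL13 (9.51 and 0) had upper bounds of 0.515 and 0.801. IL32 (1.14 and 8.95) lay above 1 after scaling, at 1.04 to 364. All of these rest on few reads, and the share over all promoters below 20 was not computed.

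IL1RAP (window chr3:190228874-190234874) had 35.0 of H3K27me3 in −Dox and 4.47 in +Dox, about 27.2 and 3.50 reads. The ratio was 0.128 (0.0370 to 0.417), with an upper bound of 0.491 after scaling to the same total. Its H3K4me3 was 37.9 and 43.6, so it passed from both marks to H3K4me3 alone. Its mean H3K27me3 of 19.7 left it just under the minimum of 20, which is why it is not among the 8 above. IL6R (window chr1:154374819-154380819), the ligand-binding chain of the interleukin 6 receptor, had 23.6 and 6.71 of H3K27me3, a ratio of 0.285 (0.0791 to 0.762), with an upper bound of 0.897 after scaling to the same total. Its H3K4me3 was also lower, 32.5 and 16.4. That ratio of 0.505 (0.244 to 0.987) was the lowest among members with a mean of at least 20, so that IL6R had neither mark above 20 in +Dox.

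CXCL16 (ENSG00000161921), a transmembrane chemokine that also serves as a scavenger receptor, had the highest H3K27me3 in both conditions, 95.1 and 64.5, about 73.8 and 51.0 reads. The ratio was 0.678 (0.464 to 0.980), and its interval ran from 0.546 to 1.15 after scaling to the same total. It remained above 20 for both marks, with 47.6 and 44.7 of H3K4me3. The start of ZMYND15 lies 95 bp away, with 97.7 and 64.5 of H3K27me3 and 49 and 46.2 of H3K4me3 in its own row, so the signal cannot be assigned to either gene. IL1RL2 had 30.8 and 13.4 of H3K27me3, a ratio of 0.436 (0.199 to 0.954) with an upper bound of 1.12 after scaling, and 10.8 and 8.58 of H3K4me3.

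Among the other receptors with both marks, IL15RA (window chr10:6017150-6023150) had 41.5 and 24.6 of H3K27me3, a ratio of 0.594 (0.312 to 1.06). IL20RA, a receptor chain for interleukins 19, 20 and 24, had 34.6 and 26.5, with H3K4me3 of 29.9 and 37.7. Both kept values above 20 for both marks. IL17RA had 20.2 and 10.8 of H3K27me3, a ratio of 0.536 (0.215 to 1.33), and IL17RB, the interleukin 25 receptor, had 20.5 and 11.2. IL17RB had 36.8 and 36.5 of H3K4me3, and the start of CHDH lies 149 bp away. These 2 receptors are the members just inside the threshold of 20, followed by IL6R and IL13, and the members just outside it are CXCL12 with 17.1, CCL25 with 16.7 and CXCL14 with 15.2 in −Dox. In +Dox these 3 had 6.34, 7.46 and 10.1.

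Among the ligands, IL7, the lymphocyte growth factor, had 42.6 and 44.4 of H3K27me3, a ratio of 1.04 (0.628 to 1.73), with 23.7 and 23.1 of H3K4me3. IL17D had 40.3 and 26.1 of H3K27me3 and 46.4 and 40.6 of H3K4me3, above 20 in each library. IL11, an interleukin 6 family member, had 29.7 and 19.0 of H3K27me3, a ratio of 0.641 (0.311 to 1.28), and 24.2 and 16.0 of H3K4me3, both crossing 20. IL13, the T helper 2 effector, had 23.6 and 13.8 of H3K27me3, a ratio of 0.585 (0.256 to 1.34), in a window 1910 bp from its canonical start. Its H3K4me3 was 17.4 and 10.4. For all 4 ligands the interval of the ratio of H3K27me3 includes 1.

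The members with H3K27me3 alone in −Dox (3.91%, against 1.58% of all promoters) were IL1RL2, IL13, IL12RB2, IL1RAPL2 and IL36RN. IL12RB2, the signalling chain of the interleukin 12 receptor, had 25.5 and 27.2 of H3K27me3, a ratio of 1.07 (0.562 to 2.09). Its H3K4me3 was 10.8 in −Dox and 23.9 in +Dox, about 11 and 18.9 reads. The ratio was 2.20 (1.003 to 5.16), with an interval just above 1. IL12RB2 was the one member with both marks above 20 in +Dox that did not have both in −Dox. IL1RAPL2, a neuronal relative of the interleukin 1 receptors, had 24.0 and 11.2 of H3K27me3, a ratio of 0.467 (0.185 to 1.08), and 19.4 and 23.5 of H3K4me3. IL36RN had the same values of H3K27me3, with 3.99 and 6.71 of H3K4me3. Of these 5 genes, 3 had neither mark above 20 in +Dox, 1 had both and 1 had H3K4me3 alone.

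Of the 10 members with both marks in −Dox, 5 had both in +Dox (CXCL16, IL7, IL15RA, IL17D and IL20RA), 3 had H3K4me3 alone (IL1RAP, IL17RA and IL17RB) and 2 had neither (IL6R and IL11). Both marks were again above 20 in +Dox at 51% of the 1907 promoters of all genes that had both in −Dox. No member had H3K27me3 above 20 in +Dox that was not above it in −Dox. Among the 95 members without a mark in −Dox, 93 had none in +Dox and 2, CXCL14 and IL12A, were above 20 for H3K4me3 in +Dox. Of the 18 members with H3K4me3 alone in −Dox (14.1%, against 54.2% of all promoters), 16 had it in +Dox and 2, CCL25 and CXCL5, were at or below 20. Apart from the 51%, shares over all promoters were not computed for these changes of class. The unmarked members had a median H3K27me3 of 6.09 in −Dox and 5.97 in +Dox, against 5.32 and 4.85 for unmarked promoters of all genes.

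H3K4me3 differed little between conditions at most members with a mean of at least 20. Of the 29 members with a mean of at least 20, 18 were lower and 11 higher in +Dox. Of 12840 promoters of all genes with such a mean, 7167 were lower and 5673 higher. The ratios of the members ran from 0.505 to 1.5, with a median log2 ratio of −0.07, against −0.04 for all promoters. None of the 29 had a ratio below 0.5, against 0.74% of all promoters, and none above 2, against 0.156%. The interval lay below 1 for 1 member, IL6R, and for none after scaling to the same total. Outside the 29, IL12RB2 (mean 17.3) had an interval just above 1, from 1.003 to 5.16, and from 1.03 to 5.29 after that scaling. IL15, a growth factor of natural killer cells, had 49.3 and 30.6, a ratio of 0.620 (0.362 to 1.02). CXCL14, a chemokine of epithelia, had the highest ratio, with 19.7 and 29.5. Its interval, 0.776 to 2.83, includes 1, and its H3K27me3 was 15.2 and 10.1. Of the 15 members above 20 for H3K27me3 in −Dox, H3K4me3 was higher in +Dox at 5 and lower at 10, and the share over all such promoters was not computed.

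**Figure D5:**
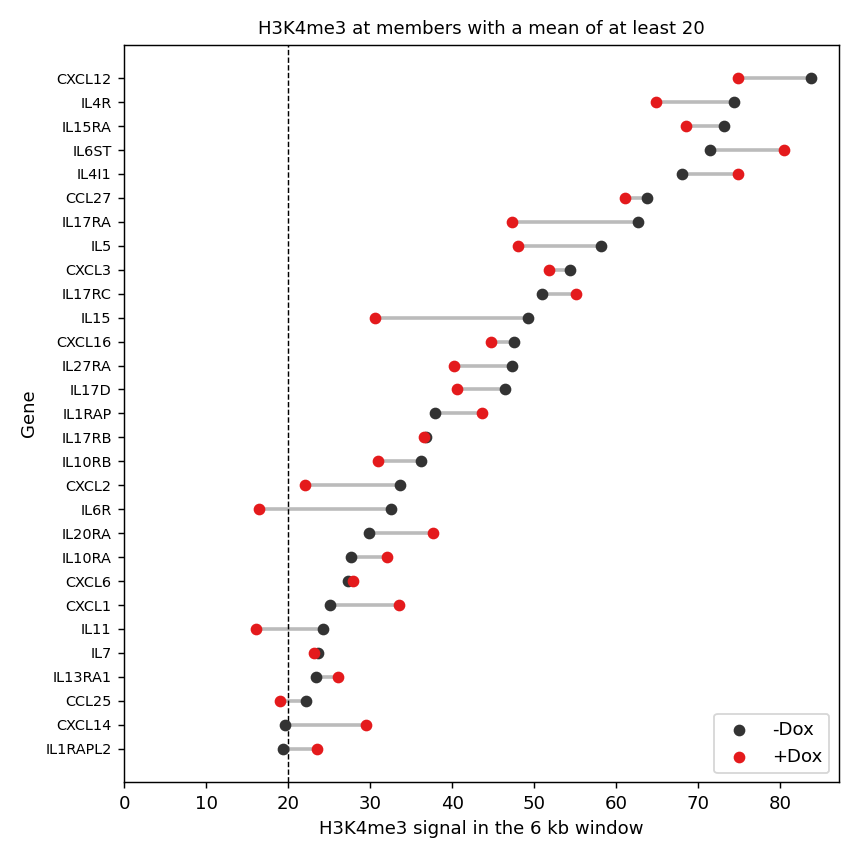
H3K4me3 signal in the 6 kb window (x axis) in −Dox (dark points) and +Dox (red points) for the 29 members with a mean of at least 20 (y axis), joined by grey lines, with a dashed line at 20. In all, 18 genes are lower and 11 higher in +Dox, with IL6R showing the lowest ratio and CXCL14 the highest.

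The partners of these genes in the same pathways were looked at by lists of receptors, kinases and related cytokines. The shares of these small lists stand beside 63.7% and 62.7% of all promoters above 20 for H3K4me3 in −Dox and +Dox, and no test was made of them. Of 22 chemokine receptors, 2 exceeded 20 for H3K4me3 in each condition (9.09%) and 1 for H3K27me3, CXCR4, the receptor of CXCL12. CXCR4 had 44.1 and 35.0 of H3K27me3, a ratio of 0.794 (0.472 to 1.37), and 72.7 and 62.3 of H3K4me3. The ligand CXCL12 and its receptor thus both carried H3K4me3, and only the receptor exceeded 20 for H3K27me3. The 3 remaining chemokine genes exceeded 20 for neither mark.

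The JAK kinases and STAT factors relay signals from interleukin receptors. Of 11 such genes, 10 exceeded 20 for H3K4me3 in each condition (90.9%). STAT5A, which relays interleukin 2 family signals, was the one above 20 for H3K27me3, with 28.1 in −Dox and 11.6 in +Dox, a ratio of 0.411 (0.163 to 0.907) whose upper bound is 1.07 after scaling to the same total, and 34.2 and 20.1 of H3K4me3. Of 23 NF-kB and Toll-like receptor genes, 12 exceeded 20 for H3K4me3 in each condition (52.2%) and none for H3K27me3 in −Dox.

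Of 16 other cytokines, 5 exceeded 20 for H3K4me3 in each condition (31.2%). TSLP, the epithelial ligand that shares the interleukin 7 receptor chain, had the highest H3K27me3 of these, 70.4 and 39.1, a ratio of 0.556 (0.344 to 0.875) with an upper bound of 1.03 after that scaling, and 18 and 16.8 of H3K4me3. Of 14 other receptor chains, 7 exceeded 20 for H3K4me3 in −Dox (50%) and 8 in +Dox (57.1%), and 2 exceeded 20 for H3K27me3 in −Dox. CNTFR and OSMR, which bind interleukin 6 family ligands and signal with IL6ST, were those 2. CNTFR had 58.6 and 22 of H3K27me3, a ratio of 0.376 (0.199 to 0.661), with 114 and 108 of H3K4me3. OSMR had 30.05 and 10.1 of H3K27me3, a ratio of 0.335 (0.132 to 0.791), with 47.9 and 27.2 of H3K4me3. Within the receptors of the interleukin 6 family, IL6R, CNTFR and OSMR each had an interval below 1 for H3K27me3 as deposited and after that scaling (upper bounds 0.897, 0.777 and 0.930). Of all promoters above 20 in −Dox, 46.5% had such an interval as deposited and 30.8% after that scaling. These genes were picked out by a value above 20 in −Dox, and no test of the family was made. IL6ST itself had 8.37 and 6.34. In the same family LIFR had 6.09 and 5.22, in a window 38758 bp from its canonical start, and IL11RA had 2.28 and 10.4. The related chains IL27RA and IL31RA had 7.99 and 13.0, and 6.09 and 5.59. All of these were below 20.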

How the data were processed

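Coverage at promoters was measured by ChIP-seq in 4 libraries, 1 per mark and condition. The authors mapped single-end MiSeq reads to hg19 with Bowtie2, discarded mitochondrial reads and deposited, per Ensembl gene, the ngs.plot signal (coverage scaled to library reads) summed over 3 kb on each side of 1 start. CASAVA 1.4 is named in the submitters' processing notes. The mapper's version and the annotation are not given in the sources used here, nor is whether the stated scaling to downstream density was applied. No input library was used here, so background is included. Scaling to library reads would hide a genome-wide loss.

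From these values, thresholds of 20 and +Dox/−Dox ratios without a pseudocount were taken. Ratios below 0.5 or above 2 were counted where the mean of both conditions was at least 20. Values divided by the step and by the steps per read (3.39 to 3.45, the mean of values of 1 to 5 steps) gave approximate reads. Shares carry 95% Wilson intervals, and ratios 95% exact Clopper-Pearson intervals on rounded approximate reads. Without molecular identifiers, reads are not independent molecules, so intervals and floors cover counting error between libraries only. The script was tested on simulated data. Starts were matched by transcript to GENCODE 44 lifted to GRCh37 (18244 promoters, 90.1%, and 112 members). Promoter sequences were read from that genome. The promoter sequence of CXCL16 is not reported here. Genes were named if above 20 for H3K27me3 in either condition, past a ratio limit, among the 10 highest for H3K4me3 in −Dox, in a list of well-known members, or next to the threshold of 20 for H3K27me3. Neighbours, clusters, zeros, changes of class, motif matches and members below 20 with an interval on 1 side of 1 were named after their values were seen. The members and lists were chosen with earlier results of these data known. Alternatives were other thresholds, scalings, a pseudocount, minimum means and fold limits. Python 3.11.15, numpy 2.4.6, pandas 2.3.3, scipy 1.17.1 and matplotlib 3.10.9 were used.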

Additional observations from a re-analysis of the deposited data

How the results depend on the processing

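No paired analysis was possible because a single library stands for each group. Leaving out a library was likewise impossible, and there is no replicate error. Of 79 recomputed values, 61 were labelled the same, 18 moved and 0 reversed. The limits of these labels are not given here, and they allowed sizeable changes. The count of members above 20 for H3K27me3 in −Dox (15) was 36 at a threshold of 10, 7 at 30 and 6 when taken in +Dox. The count for H3K4me3 (28) was 44 at 10 and 19 at 30, the latter labelled the same. The count with both marks (10) was 23 at 10, 4 at 30 and 6 in +Dox. The count of H3K27me3 ratios below 0.5 (1) was 0 after scaling to the same total and 0 with a pseudocount of 5, 7 with a minimum mean of 10, 33 with no minimum and 4 at a limit of 0.66, and ratios above 2 (0) came to 15 with no minimum. The count of H3K4me3 ratios below 0.5 (0) was 1 when +Dox was scaled on low promoters, 18 with no minimum and 3 at 0.66, and the count above 2 (0) was 1 with a minimum mean of 10 and 10 with no minimum. Fewer or more promoters pass by construction where a threshold, minimum or limit moves. Both scalings multiply every ratio of a mark by the same factor, and a pseudocount moves ratios towards 1, so a ratio near 0.5 can cross that limit. The H3K27me3 ratio below 0.5 was that of IL1RL2 (0.436), and the lowest H3K4me3 ratio was that of IL6R (0.505). The median log2 ratio of members ranged from −0.63 to −0.28 for H3K27me3 and from −0.18 to −0.03 for H3K4me3. Scaling to the same total shifts every H3K27me3 log2 ratio by 0.23, and the 6 lower and 2 higher members were 6 and 2 again. Scaling on low promoters shifts every H3K4me3 log2 ratio by −0.11, with 19 members lower and 10 higher. Leaving out members whose window holds the start of another protein-coding gene was chosen after seeing the data, and left 13 above 20 for H3K27me3, 22 for H3K4me3 and 8 for both in −Dox. Depth limits single promoters: a signal of 20 equals about 15.5 to 20.3 reads, so a single ratio is known only within its wide interval.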
